A study of Mus musculus with 9 samples.

Results

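Mouse chromosome 19 held 486 of the 19165 sites that the authors' deposited table lists as differing in chromatin accessibility between untreated cells and cells given 4-hydroxytamoxifen (4OHT). They were chosen by chromosome name, and the chromosome itself was chosen by the measured share of its sites with a higher level after 4OHT, that is by the sign of the 4OHT minus the control level. That share is therefore a description with no test. The data are ATAC-seq, in which the Tn5 transposase cuts into open DNA and leaves sequencing adapters there. The cells were E14tg2a mouse embryonic stem cells of a 129SV background that stably express cRAF-ErT2, in which the RAF kinase is joined to an estrogen receptor domain that 4OHT switches on, so that the drug activates ERK. All of them grew in serum with LIF and 2 µM Chir99021, a GSK3 inhibitor, and were moved for the last 24 h to serum and LIF with 250 nM PD173074, an FGF receptor inhibitor. The labels give 9 libraries, of which 3 are untreated (0 h), 3 had 250 nM 4OHT for 1 h and 3 had it for 2 h. They do not say whether the line is a single clone or whether each library came from its own culture. The p-values of the authors thus rest on differences among libraries that may be technical. In the labels the titles B and C carry the tags B2 and B, so whether these are separate replicates was not settled. Neither vehicle-treated cells nor cells without the fusion are among them, so effects of ERK, of 4OHT and of handling cannot be told apart. The table gives 1 mean for the control side and 1 for the 4OHT side, which was taken to pool both times, and no value per library. Read depth is unknown. The labelled cell type was not checked against markers, since only differing sites are listed.

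ERK is the last kinase of the RAS-RAF-MEK-ERK cascade. In mouse embryonic stem cells FGF signalling acts through it, and ERK activity moves cells out of the naive state towards lineage priming. Accessible sites away from gene starts are often enhancers, which factors and coactivators bind, and a site inside a gene may serve that gene or another one. Chromosome 19 is the smallest mouse autosome and is gene-rich. In the RefSeq table of GRCm38.p6, the assembly behind mm10, it has 705 protein-coding genes or 11.5 per Mb up to its last gene, and 2 of the other 18 autosomes had more per Mb.

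Of the 486 sites, 304 were higher after 4OHT and 182 were lower. The higher share was 62.6% (exact Clopper-Pearson 95% interval 58.1 to 66.9%), against 52.5% of the 18205 sites on the other 18 autosomes (51.8 to 53.3%) and 52.6% over the whole list. The listed sites were about 7.86% of the sites tested, if the authors' FDR is that of Benjamini and Hochberg. The other autosomes ran from 48.8% on chromosome 7 to 56.4% on chromosome 10. The intervals cover counting error only and treat neighbouring sites as independent, which they were not. A higher mean can come from more cells with the site open or from a more open site in each cell, and bulk libraries cannot tell these apart.

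**Figure D1:**
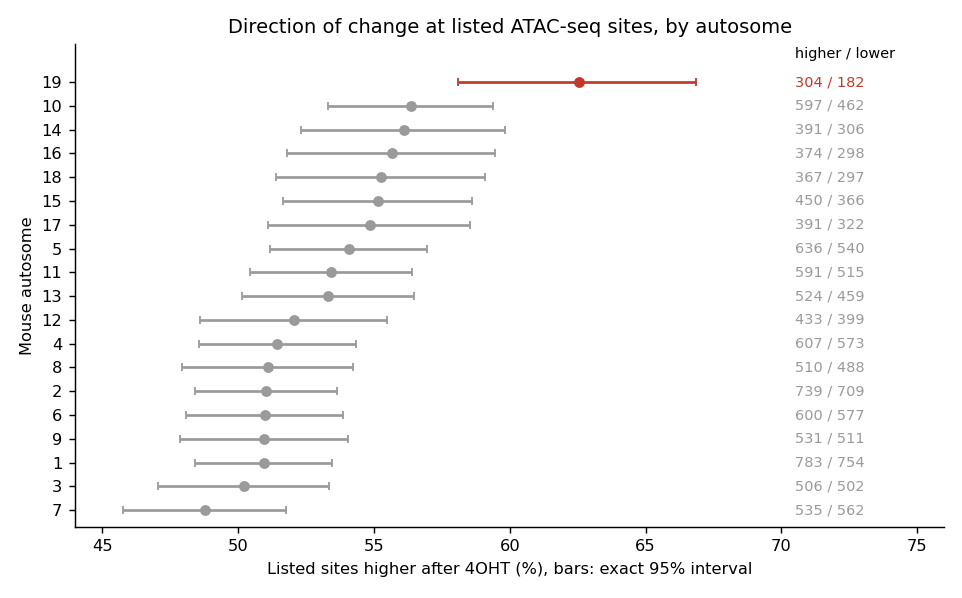
Share of listed sites that were higher after 4OHT on each mouse autosome, in percent, with exact 95% intervals as bars and the numbers of higher and lower sites at the right. Chromosome 19 (red) is at 62.6% and the other 18 autosomes (grey) lie between 48.8 and 56.4%.

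Per Mb both directions took part in the difference. Per protein-coding gene only the lower sites were outside the range of the other autosomes. Up to the last gene of each chromosome, chromosome 19 had 4.96 higher sites per Mb, above the range of the other autosomes (3.14 to 4.85), and 2.97 lower sites per Mb, where 17 of the other 18 had more (median 3.61). In all it had 7.93 listed sites per Mb, and 5 other autosomes had more. Per 100 protein-coding genes it had 43.1 higher sites, fewer than 14 of the other autosomes, and 25.8 lower sites, fewer than all 18 of them. A chromosome with many genes gets a low value on this scale.

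The sequences that carry the clearest annotated function are promoters, so those under a listed site are shown here. A site covered an annotated start in the RefSeq promoter table (1044 promoters on this chromosome) at 14 places, of which 12 were higher and 2 lower. All 10 sites that covered a protein-coding start given there were higher, and both lower ones covered the start of a long non-coding RNA, Gm30234 and Gm30381. Some sites over an end of a protein-coding gene are not among these. Those over an end of Fosl1 and of Scd2 were higher. Those over an end of Afap1l2 (7.78 to 6.57), of Poll (7.75 to 6.77) and of Lgi1 (6.04 to 5.04) were lower. Whether these ends are starts was not determined. Sites over starts were mostly higher elsewhere too. On the 17 other autosomes whose promoters were used, 331 of 422 such sites were higher (78.4%), and 250 of the 280 over a protein-coding start were (89.3%). Shown are the 250 bases before the start of Trpm3, a cation channel gene, and Got1, an aspartate aminotransferase gene, both taken by the naming rule. Map3k11, which encodes a MAP kinase kinase kinase, comes from the list of ERK and receptor signalling genes. Slc25a45, a mitochondrial carrier gene, Fas, a death receptor gene, Ankrd22, an ankyrin repeat gene, and Gm30234 were added after their values were seen, to give a range of changes in both directions. Sequences are from RefSeq, build GRCm38.p6, read 5′ to 3′ on the gene's strand. Capitals mark matches, on either strand, to AP-1 (TGANTCA), ETS (CGGAAG), CRE-type (ACGTCA) and GC box (GGGCGG) letters or to the serum response factor CArG box.
Trpm3: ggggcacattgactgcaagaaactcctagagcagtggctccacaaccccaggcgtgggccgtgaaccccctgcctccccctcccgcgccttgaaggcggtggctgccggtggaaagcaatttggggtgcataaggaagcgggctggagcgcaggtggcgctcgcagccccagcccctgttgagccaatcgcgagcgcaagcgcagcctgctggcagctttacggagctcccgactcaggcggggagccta
Got1: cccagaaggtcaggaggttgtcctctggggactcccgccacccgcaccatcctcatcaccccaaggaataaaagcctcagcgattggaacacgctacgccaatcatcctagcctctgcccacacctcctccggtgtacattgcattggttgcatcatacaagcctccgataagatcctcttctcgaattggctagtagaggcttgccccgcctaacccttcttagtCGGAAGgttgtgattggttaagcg
Map3k11: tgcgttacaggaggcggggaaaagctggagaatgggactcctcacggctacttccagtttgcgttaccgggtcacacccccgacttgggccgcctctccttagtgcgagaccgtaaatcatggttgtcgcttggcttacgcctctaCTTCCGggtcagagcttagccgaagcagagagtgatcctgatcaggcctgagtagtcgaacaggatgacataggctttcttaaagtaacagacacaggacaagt
Slc25a45: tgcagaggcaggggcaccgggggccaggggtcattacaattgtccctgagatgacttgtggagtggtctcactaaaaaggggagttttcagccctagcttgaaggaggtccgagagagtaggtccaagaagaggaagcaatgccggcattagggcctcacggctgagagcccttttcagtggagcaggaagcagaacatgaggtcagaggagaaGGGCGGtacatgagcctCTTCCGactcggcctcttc
Fas: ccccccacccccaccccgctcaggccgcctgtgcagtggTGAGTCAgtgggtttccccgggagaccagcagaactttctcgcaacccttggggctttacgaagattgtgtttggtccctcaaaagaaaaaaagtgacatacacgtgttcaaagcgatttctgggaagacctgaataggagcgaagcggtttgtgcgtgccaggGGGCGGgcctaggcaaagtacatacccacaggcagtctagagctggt
Ankrd22: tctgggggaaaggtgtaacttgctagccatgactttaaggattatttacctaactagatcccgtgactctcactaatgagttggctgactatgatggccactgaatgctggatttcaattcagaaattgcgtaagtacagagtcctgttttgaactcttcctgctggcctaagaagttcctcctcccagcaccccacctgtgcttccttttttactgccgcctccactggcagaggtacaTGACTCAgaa
Gm30234: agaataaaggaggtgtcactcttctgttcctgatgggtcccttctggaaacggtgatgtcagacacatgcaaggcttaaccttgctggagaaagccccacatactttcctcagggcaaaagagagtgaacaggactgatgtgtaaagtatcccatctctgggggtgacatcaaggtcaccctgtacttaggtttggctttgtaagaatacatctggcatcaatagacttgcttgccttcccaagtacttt

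These windows lie at chr19:22138796-22139045 (Trpm3, plus strand), chr19:43524606-43524855 (Got1, minus), chr19:5688881-5689130 (Map3k11, plus), chr19:5877572-5877821 (Slc25a45, plus), chr19:34290409-34290658 (Fas, plus), chr19:34166042-34166291 (Ankrd22, minus) and chr19:53064690-53064939 (Gm30234, minus). The Ankrd22 window holds AP-1 letters close to the start, and its site rose from 4.11 to 5.79 in log2 normalized reads (log2 change 1.68, FDR 0.00300). All levels here are in this unit, and levels and FDR values are those of the authors' deposited table, with no SD or n per site. The Fas window holds AP-1 letters farther upstream and a GC box, and its site rose from 7.62 to 8.32 (FDR 2.04e-04). The Slc25a45 window holds an ETS core and a GC box, and its site rose from 9.32 to 10.17 (FDR 1.13e-06). ETS letters are also in the windows of Map3k11, whose site went from 10.48 to 10.92, and of Got1, at 10.93 and 11.29. The Trpm3 window, 66.4% G or C, holds none of these letters, and its site had the smallest listed gain of the chromosome, from 10.49 to 10.75. Gm30234, also without a match, fell from 9.44 to 8.34 (FDR 6.01e-06).

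Most of these promoter sites were open before 4OHT and gained little, except those of Ankrd22 and the non-coding Gm29593, which started at 4.11 and 4.33. The 12 higher ones had a median control level of 10.34 and a median log2 change of 0.50, with a range of 0.26 to 1.72, whereas the median of all 304 higher sites was 1.45. Of the 14 distinct promoter windows whose start lay under a higher site, 5 held the ETS core, against 13.6% of all 32851 promoters in the table. AP-1 letters were in 2, against 6.75%. These 14 windows had a median of 56.4% G or C, against 52.4% over all promoters, and the comparison was not matched for this. A CArG box was in 1 of the 14, that of Npm3, a histone chaperone gene (1.47% of all promoters), CRE-type letters in 2 (6.47%) and a GC box in 5 (32.7%). The windows of Map3k11 and Pcnx3, which share 1 site, overlap, so their ETS letters count in both. In the windows shown no match overlapped another. A match is a run of letters and not a bound site.

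The main question was whether the high share comes from a few loci or is spread along the chromosome. In 5 Mb stretches counted from the centromeric end, 12 of the 13 had a share above the 52.5% of the other autosomes, and all 13 held at least 10 sites. Over the other autosomes this held for 220 of 465 stretches with at least 10 sites (47.3%), and by autosome for 35.3% on chromosome 18 to 61.1% on chromosome 16. The exception on chromosome 19 was the stretch from 15 to 20 Mb, with 13 higher and 15 lower sites. It has 16 protein-coding genes. The stretches with fewer, from 50 to 55 Mb (14 genes) and from 60 to 65 Mb (12 genes, 10 sites), had shares of 59.4 and 70.0%.

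The highest shares were at the centromeric end, which is gene-rich. From 0 to 5 Mb 12 of 13 sites were higher, and from 5 to 10 Mb 34 of 45 were (75.6%). These 2 stretches hold 67 and 157 protein-coding genes. Together they had 46 higher and 12 lower sites (79.3%, exact interval 66.6 to 88.8%). Beyond 10 Mb, 258 of 428 sites were higher (60.3%, 55.5 to 64.9%), which was still the highest share of any autosome when the first 10 Mb of each was left out. The stretch from 15 to 40 Mb, with a median of 6 protein-coding genes within 500 kb of a site, had 103 higher and 79 lower sites (56.6%, 49.1 to 63.9%). Leaving out any single 5 Mb stretch gave shares of 61.2 to 63.5%. No stretch held more than 68 sites, which limits how far the share could move. The first 243 sites in order of position were 63.4% higher and the last 243 were 61.7% higher.

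**Figure D2:**
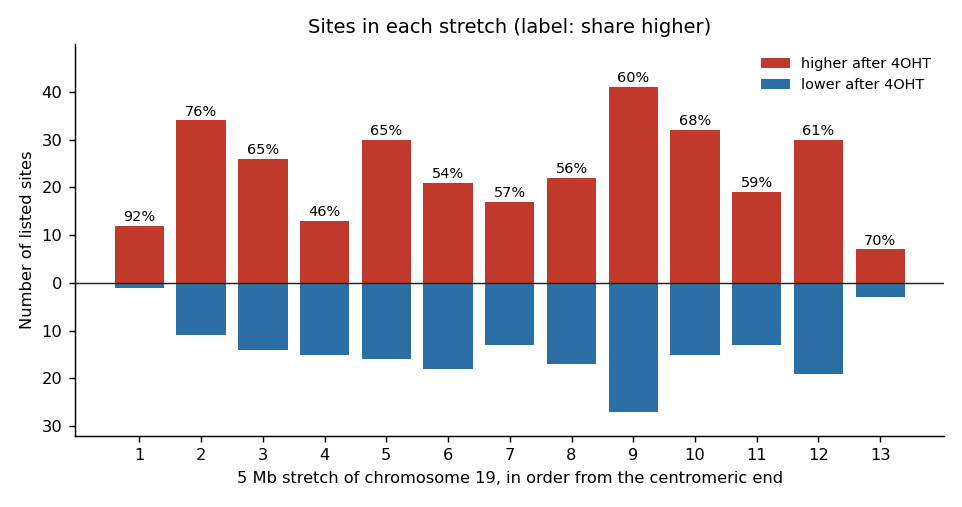
Number of chromosome 19 sites that were higher (red, upwards) and lower (blue, downwards) after 4OHT in each 5 Mb stretch, with the share of higher sites above each bar. The shares run from 46% in the stretch from 15 to 20 Mb to 92% in the first stretch.

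Single genes held too few sites to set the share. Each site was named after its closest protein-coding gene if that was no more than 100 kb away, which gave 450 sites and 220 genes. The most sites near 1 gene were 16 of the 486, so leaving out a gene could not move the share far. Leaving out any 1 gene moved it to between 62.1% (without Dusp5) and 63.3% (without Lcor). Leaving out the 5 genes with the most sites gave 62.8%. Of the 220 genes, 111 had only higher sites, 52 only lower ones and 57 both. On the other autosomes 44.5% of genes with a site had only higher ones and 30.7% only lower ones, against 50.5% and 23.6% here. With 1 site per gene, that with the smallest p, 65.9% of the 220 genes were higher (57.4% elsewhere). Among the 121 genes with a single site, 80 were higher (66.1%, against 59.5% elsewhere).

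Neighbouring sites repeated each other's direction over short distances, as on other chromosomes. Of 37 neighbouring pairs up to 5 kb apart, 28 had the same direction (75.7%, exact interval 58.8 to 88.2%), of which 21 were both higher. The share was 70.9% of 86 pairs at 5 to 20 kb, 55.7% of 201 pairs at 20 to 100 kb and 57.8% of 161 pairs over 100 kb apart. Directions drawn independently at this chromosome's share would match in 53.2% of pairs. Joining sites within 5, 20 or 100 kb into 1 locus, with the direction of its smallest p, left 62.2% of 447, 61.4% of 360 and 60.0% of 160 loci higher, and chromosome 19 stayed the highest autosome in each case. The difference from the other autosomes was 9.44, 8.53 and 10.3 percentage points in these, against 10.0 when sites are counted singly.

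Where sites of one direction ran on, the runs of higher sites were longer. Longer runs of the more common direction follow from the 62.6% share itself, and runs on the other autosomes were not counted. In order along the chromosome there were 19 runs of 5 or more higher sites, with 150 sites in all, and 7 such runs of lower sites, with 44. The longest had 22 higher sites over 2338 kb near 18 genes, from chr19:4034258 to 6372745 (mm10), with a median log2 change of 1.12. It includes a site within 1 kb of an end of Fosl1, an AP-1 subunit gene induced by ERK, which rose from 9.44 to 10.17, sites inside Atg2a, an autophagy gene (5.62 to 7.92), and Ehd1, an endosome recycling gene (8.22 to 9.69), and one near Gstp1, whose near-identical copies make it uncertain. The second had 18 higher sites over 910 kb near 10 genes, from 45594874 to 46504574, with 4 sites near Armh3 and 3 near Oga, which encodes the enzyme that removes O-GlcNAc. Both runs lie in gene-rich stretches. The third had 14 sites, all near Tle4. The longest runs of lower sites had 7 each, near Rfx3 and Glis3, near Lgi1 and Plce1, and near Ins1, Xpnpep1 and Add3.

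Tle4, a Groucho corepressor gene, was nearest to the most sites. All 12 sites inside it (chr19:14448072-14598183) were higher, with log2 changes of 0.51 to 1.48 and control levels from 3.68 to 7.54. Around it directions were mixed. Within 100 kb outside the gene 2 sites were higher and 2 lower, among them one at 14414961 to 14415495 inside the non-coding gene Gm8630, which went from 8.41 to 7.45 (FDR 5.84e-07). Farther out, where Tle4 was still the nearest coding gene, 2 were higher and 5 lower.

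Dusp5, which encodes a nuclear phosphatase of ERK and is a classical feedback target, had 6 sites and all were higher. The one inside the gene, at 53531501 to 53531790, rose from 5.83 to 7.94 (log2 change 2.11, FDR 4.79e-06). The sites upstream of its start rose less the farther away and the more open they were, from 6.75 to 8.47 at 21495 bp, from 7.54 to 8.48 at 28177 bp and from 11.13 to 11.47 at 68305 bp, the last of which covers the start of the non-coding gene 4833407H14Rik. The other two, past the gene's far end, rose from 5.28 to 7.16 and from 3.45 to 5.68. Together with sites near Smndc1, Smc3 and Rbm20 they form a run of 11 higher sites over 349 kb.

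Cemip2, a transmembrane hyaluronidase gene, had 6 higher and 1 lower site. Its strongest gains started from nearly closed chromatin, from 2.69 to 5.57 inside the gene and from 3.29 to 6.11 at 5395 bp from it. Sgms1, a sphingomyelin synthase gene, held 6 higher and 3 lower sites, all inside it. Tcf7l2, the Wnt pathway transcription factor gene, had 6 higher and 3 lower. Its most significant site, 22701 bp outside the gene at 55718795 to 55719397, rose from 9.12 to 9.98 (FDR 1.16e-06), while 2 of its other outside sites and 1 inside were lower, with log2 changes between -1.0 and -0.67. Trpm3 had 6 higher and 3 lower, and the scaffold protein gene Ahnak 5 and 1.

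Genes with mostly lower sites were fewer. Lcor, a nuclear receptor corepressor gene, had 7 lower and 2 higher sites. All 5 outside it were lower and the 4 inside were split, with the site at 41573846 to 41574571 at 8.10 before and 6.92 after 4OHT (FDR 1.41e-09). Lgi1, which encodes a secreted neuronal protein, had 6 lower and 1 higher, again with all 4 outside sites lower. One of these, at 38320417 to 38321082 inside the non-coding gene Gm9886, had the smallest p of all lower sites on the chromosome and went from 9.61 to 8.19 (FDR 3.43e-10). Pip5k1b, a phosphoinositide kinase gene, had 5 lower sites, all inside it, with log2 changes of -1.27 to -0.82. Glis3, a zinc finger transcription factor gene, had 4 lower sites, and Xpnpep1, an aminopeptidase gene, had 4 lower sites, all outside it.

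**Figure D3:**
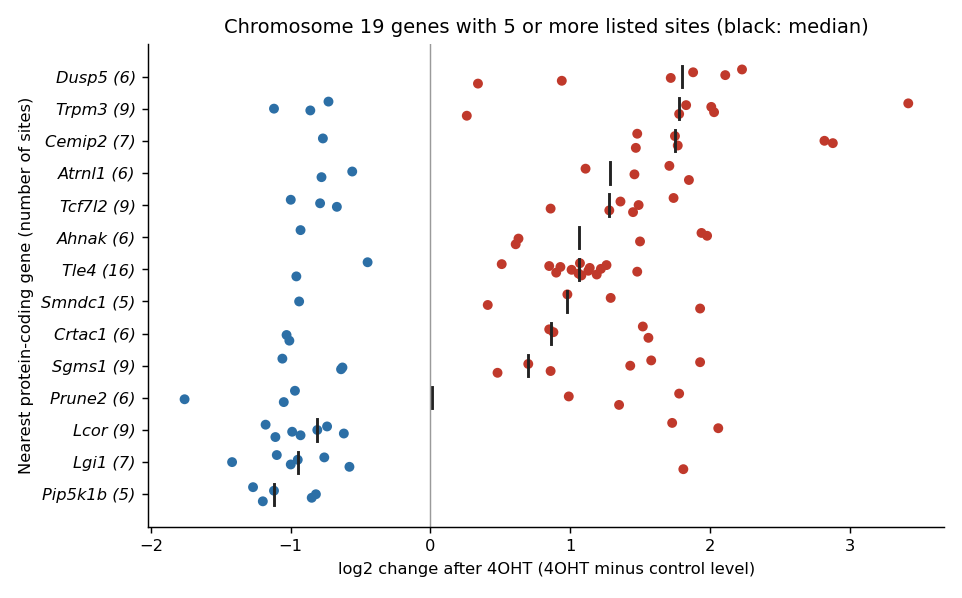
Log2 change after 4OHT at each listed site of the 14 chromosome 19 genes nearest to 5 or more sites (within 100 kb), with 1 point per site, red for higher and blue for lower, and black bars at the median. Dusp5 has 6 higher sites and no lower one, Pip5k1b 5 lower sites and no higher one, and most other genes hold both.

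Gene-rich stretches and position relative to genes gave a more uneven picture. In quintiles of the number of protein-coding genes within 500 kb, over all autosomes, the higher share on the other autosomes climbed from 40.2% (0 to 3 genes) to 62.2% (18 to 69 genes). On chromosome 19 the shares were 58.3, 51.5, 62.0, 63.4 and 73.0% in the same quintiles, each above the value elsewhere, by 18.1, 2.37, 7.14, 5.25 and 10.8 percentage points. In all but the first quintile, at least 2 other autosomes were above chromosome 19. The chromosome has more of its sites in the densest quintile (25.9% against 18.4%). Weighting the other autosomes to its gene density raised their share to 54.5%, which left 8.09 of the 10.0 points.

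The difference was large inside genes and small outside them. Inside an annotated gene and over 1 kb from any gene end, 190 of 272 sites had gained (69.9%, exact interval 64.0 to 75.2%), while on the other autosomes 55.5% of 9687 had and no single autosome exceeded 59.8%. Outside genes 80 of 169 were higher (47.3%, 39.6 to 55.1%), against 46.1% elsewhere, and 8 other autosomes had a higher share. Within 1 kb of a gene end 34 of 45 were higher (75.6%, 60.5 to 87.1%), against 63.8% elsewhere and 77.1% on chromosome 14. The mix of positions itself was close to that of the other autosomes, with 56.0% of sites inside genes (53.2% elsewhere), 34.8% outside (38.5%) and 9.26% at gene ends (8.25%). Weighting the others to this mix moved their share to 53.0%. The gap outside genes depended on which sites were counted. With an FDR under 0.001 the count outside genes was 48 higher of 85 (56.5%, interval 45.3 to 67.2%), compared with 45.1% elsewhere. Inside genes 92 of 122 were higher at this FDR (75.4%, against 57.7%). The gap at gene ends depended on this too. With an FDR under 0.001, 19 of 23 were higher there (82.6%, against 63.2%). With log2 changes of at least 1, 16 of 22 were (72.7%, against 71.5%), and 8 other autosomes were above chromosome 19.

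**Figure D4:**
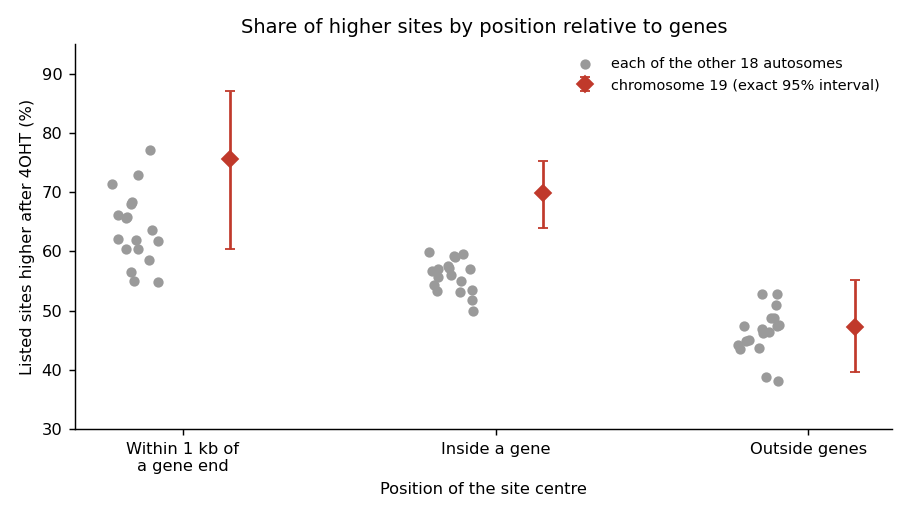
Share of listed sites that were higher after 4OHT, in percent, by position of the site centre, for each of the other 18 autosomes (grey points) and for chromosome 19 (red, with its exact 95% interval). Inside genes chromosome 19 is at 69.9% and the others reach 59.8%, while outside genes it is at 47.3%, among the others.

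Sites inside genes were also divided in other ways, all chosen after the values were seen. By quintiles of level chromosome 19 was above the others in each, with 1 other autosome above it in the fourth quintile (55.2%, against 46.3% elsewhere). By quintiles of gene density it was also above the others in each, but the second had 54.2%, against 51.2% elsewhere (exact interval 39.2 to 68.6%), with 6 other autosomes above it, and the 2 densest had 2 and 1 above. Shares inside genes were above the 55.5% of the other autosomes in 12 of the 13 stretches of 5 Mb, while outside genes 6 of the 13 were above the 46.1% found there. Some stretches held few sites, down to 6 inside genes and 3 outside, and stretches of the other autosomes were not counted this way. By length of the protein-coding gene, 55 of 66 sites in genes under 50 kb were higher (83.3%, against 66.1% elsewhere), 70 of 90 in genes of 50 to 150 kb (77.8%, against 61.9%) and 60 of 99 in longer genes (60.6%, against 49.0%). In each of these length classes chromosome 19 was above all other autosomes. With 1 site inside each protein-coding gene, 109 of 138 genes were higher (79.0%, exact interval 71.2 to 85.5%), against 62.3% of 4800 elsewhere. Of these 138 genes 90 had only higher sites inside, 20 only lower and 28 both. Beyond the first 10 Mb, 166 of 243 inside sites were higher (68.3%, against 55.7%). Over the 14 genes with 5 or more sites within 100 kb, 22 of 39 lower sites and 46 of 67 higher sites lay inside the gene.

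Outside genes, sites were divided by distance to the nearest protein-coding gene. At up to 10 kb 33 of 58 sites were higher (56.9%, exact interval 43.2 to 69.8%), against 53.3% elsewhere, and at 10 to 50 kb 32 of 71 (45.1%, against 46.9%). At 50 to 100 kb 4 of 13 were higher (30.8%, exact interval 9.09 to 61.4%), against 45.2% elsewhere, and each of the other 18 autosomes was above chromosome 19 there. It was 11 of 27 beyond 100 kb (40.7%, 22.4 to 61.2%), against 39.8%.

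The level of the sites did not differ much from that elsewhere, and the share was above the other autosomes at each level. The mean level over all libraries had a median of 6.98 (126 normalized reads) on chromosome 19 and 6.98 on the others. By quintiles of this level from low to high, 77.7, 64.3, 61.4, 51.5 and 58.3% of chromosome 19 sites were higher, against 67.6, 58.3, 49.2, 41.8 and 45.7% elsewhere. The gaps ran from 6.0 to 12.6 percentage points, and in 4 of these quintiles chromosome 19 was above every other autosome. Weighting the others to its deciles of level left a gap of 10.1 points, or 9.65 with the midpoint of both sides' levels, which weighs control and 4OHT alike. Weighting by level, gene density and position at once left 8.09. Each level quintile holds 94 to 101 of its sites. The interval for chromosome 19 held the value of the other autosomes in 2 of the 5 level quintiles and in 3 of the 5 gene density quintiles.

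**Figure D5:**
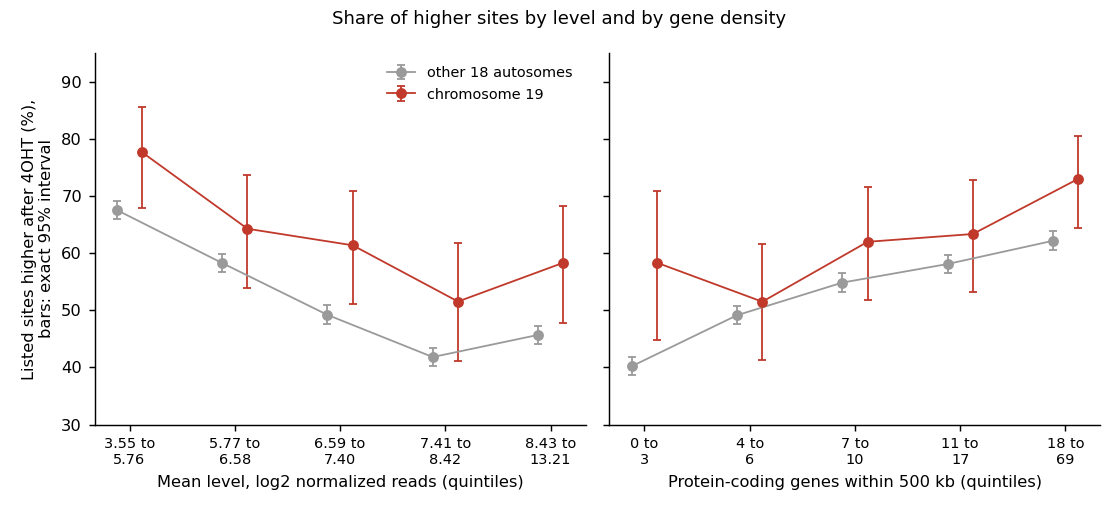
Share of listed sites higher after 4OHT, in percent with exact 95% intervals, by quintiles of the mean level (left, log2 normalized reads) and of the number of protein-coding genes within 500 kb (right). Chromosome 19 (red) is above the other 18 autosomes (grey) in all 10 groups, by 2.37 to 18.1 percentage points.

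The median size of the changes was like that elsewhere, but large gains were fewer. The median log2 change was 1.45 at higher sites (quartiles 1.01 and 1.78), a 2.73-fold gain, and -0.93 at lower sites (quartiles -1.11 and -0.75), a 1.91-fold loss. On the other autosomes the medians were 1.46 and -0.94. The upper quartile at higher sites was 1.92 there. A log2 gain of at least 2 was found at 43 of the 304 higher sites (14.1%), against 21.8% elsewhere. The largest gain was 3.48 here and 5.41 elsewhere, and the largest loss -1.76 and -2.43. A log2 change of at least 1 was listed at 229 higher sites and 73 lower ones. The share of all sites that gained this much was 47.1%, against 40.8% elsewhere. Higher sites started from a median control level of 5.58 and reached 7.07, and lower sites went from 7.79 to 7.0. Higher sites had a median width of 415 bp and lower ones 562 bp. Among sites with an FDR under 0.001, 159 of 230 were higher (69.1%), against 53.2% elsewhere, so the gap was 15.9 percentage points there.

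The site with the smallest p on the chromosome lay inside Loxl4, a lysyl oxidase gene, 1251 bp from its end, at chr19:42611317-42611794, and rose from 5.81 to 8.41 (log2 change 2.60, 6.06-fold, FDR 1.75e-12). The next was at 60617088 to 60617629 inside the non-coding gene Gm46652, nearest to the coding gene Cacul1, and rose from 7.25 to 9.15 (FDR 2.42e-09). A site inside Rfx3, a ciliary transcription factor gene, rose from 7.08 to 8.24. Sites inside Blnk, a B-cell adaptor gene, and Prune2 rose from 7.42 to 9.37 and from 6.28 to 8.06. Others with small p lay near Pnlip, a lipase gene, within 1 kb of an end of the non-coding 1810018F18Rik (6.93 to 8.45), and inside the non-coding Gm31568 (5.23 to 7.61).

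The largest gains started from low levels. The site at 29887642 to 29887785, inside the non-coding gene Gm41832 and 37400 bp from Il33, a cytokine gene, rose from 1.63 to 5.11 (log2 change 3.48, FDR 5.37e-05). One inside Trpm3, within 1 kb of an end of the non-coding C330002G04Rik, rose from 2.58 to 6.0 (FDR 1.01e-06). A site 30246 bp outside Mxi1, which encodes an antagonist of Myc, rose from 4.58 to 7.77, and one inside Kif11, a mitotic kinesin gene, from 4.72 to 7.78. The last of the 5, with its nearest coding gene Gpam 373157 bp away, rose from 2.36 to 5.37.

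Among lower sites, those with the smallest p after the Lgi1 and Lcor sites lay 40143 bp outside Kif20b (8.14 to 7.01, FDR 1.42e-09) and 6196 bp outside Prkg1, a cGMP-dependent kinase gene (7.70 to 6.06, FDR 1.64e-08). A site 1236 bp outside Pdlim1, a cytoskeletal adaptor gene, fell from 9.27 to 8.42. One nearest Incenp, a gene of the chromosomal passenger complex, and one near Gm815 fell from 7.79 to 6.23 and from 9.11 to 8.37. The largest loss was inside Prune2, from 5.17 to 3.41 (FDR 0.00481), in a gene that also held 3 higher sites. Sites outside Gna14, a G protein subunit gene, and nearest Fam204a fell from 7.39 to 5.76 and from 7.59 to 6.02.

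Gene lists give the sites by role, to be read beside the 62.6% of the whole chromosome and its median log2 change of 0.90, without a test. Over the whole chromosome 220 of the 705 protein-coding genes (31.2%) were the nearest gene of a site within 100 kb, which the counts of list genes with a site are to be read against. Of 16 genes of ERK and receptor signalling, 8 had a site within 100 kb, with 15 higher and 4 lower sites and a median log2 change of 1.31. Dusp5, Fosl1, Map3k11, Gnaq, a G protein subunit gene, and Jak2, a cytokine receptor kinase gene, had only higher ones. A site inside Jak2 rose from 7.06 to 8.61 (FDR 2.31e-07). Inside Gfra1, a GDNF receptor gene, 2 were higher and 1 lower. Rps6ka4, which encodes a kinase downstream of ERK and p38, had 1 lower site.

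Of 17 transcription factor and chromatin genes, 8 had a site, with 30 higher and 11 lower. Beside Tle4 and Tcf7l2, described above, these were Klf9, with 3 higher sites, the strongest from 5.94 to 7.46 (FDR 9.16e-07), Rfx3, with 3 higher and 1 lower, Mxi1 and Smarca2, a chromatin remodeller gene, with 2 higher each, Glis3 with 4 lower, and Pcgf5, a Polycomb gene, with 1 lower, from 7.30 to 5.94. The Wnt list (6 genes) had sites near Tcf7l2 and Btrc, a ubiquitin ligase gene, with 9 higher and 4 lower in all. Of 10 lineage and germ line genes 7 had a site, with 7 higher and 6 lower. Cyp26a1, a retinoic acid degrading enzyme gene, had 2 higher, and Lbx1 and Emx2, homeobox genes, had 2 and 1 lower ones. In Pax2 and Dmrt1, both transcription factor genes, sites inside the gene rose from 5.17 to 7.01 and from 5.63 to 7.13.

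Of 13 metabolic genes only Got1 and Scd2 had a site, with 5 higher and 1 lower. Scd2 has close paralogs on the same chromosome, so its sites are uncertain. Of 10 cytoskeleton and adhesion genes 8 had one, with 16 higher and 11 lower. Ehd1 had 1 higher site, given above. Add3, an adducin gene, had 2 lower, and Kank1 had 1 higher and 2 lower, one from 7.70 to 6.71. The nuclear non-coding RNA genes Neat1 and Malat1 could not be counted this way, since only protein-coding genes were used as the nearest gene. Whether a listed site lies at either was not determined. Of 5 genes of other cell types, Loxl4 had 2 higher sites and Cd5, a lymphocyte gene, had 1, which rose from 4.26 to 6.10, while Cd6, Ms4a1 and Acta2 had none listed.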

How the data were processed

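The deposited table holds 1 row per ATAC-seq site with its mm10 position and its width. Its levels are log2 mean normalized reads over all, control and 4OHT libraries, and its log2 fold is control minus 4OHT (to within 0.01), per the file headers and as tested on the values. Each p-value and FDR (at most 0.01) is the authors' deposited value, used without a refit. Per the submitters' processing notes Bowtie2, bedtools and MACS2 were used, in roles not stated. Not given in the sources used here are the scaling, the differential test and the handling of read filters, duplicates and Tn5 offsets, each of which could move the levels. The change was taken as the 4OHT level minus the control level. A mean weighted 3 to 6 matched the mean level to within 0.00986, so 1 h and 2 h were taken as pooled.

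Members and gene lists were chosen with earlier results of these data known. Sites were placed by their centre on a RefSeq gene table of GRCm38.p6 (49997 genes, 21900 protein-coding). The nearest gene is a naming convention. A gene end is either end of any annotated gene, within 1 kb. Whether a site lies in an exon, an intron or a UTR was not determined. Shares have exact Clopper-Pearson 95% intervals. Reweighting replaces the mix of sites on the other autosomes by that of chromosome 19, and it was tested on simulated directions. Promoters of chromosome 18 were not used here. Named were, in each direction, the 8 sites with the smallest p, the 5 with the largest change, the 5 genes nearest to the most sites and up to 2 genes per list, for ERK and receptor signalling, transcription factors and chromatin, Wnt, lineage and germ line, metabolism, cytoskeleton and adhesion, non-coding and other cell type genes. Promoter genes, genes in runs and further list members were added with their values known. Some genes that the rule names are not reported here. Software was scipy 1.17.1, numpy 2.4.6, pandas 2.3.3 and matplotlib 3.10.9 under Python 3.11.15.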

Additional observations from a re-analysis of the deposited data

How the results depend on the processing

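The difference of chromosome 19 from the other autosomes in the share of higher sites (10.0 percentage points) kept its sign in the 17 alternative settings. Its sign was reversed in some finer splits of the sites outside genes, given above. The share itself (62.6%) stayed above that of lower sites except outside genes. In 11 of the 12 choices of sites, chromosome 19 was the highest autosome, the exception being sites outside genes, where it ranked 9. Outside genes with an FDR under 0.001 it was the highest (56.5%, with the next at 56.1%). These choices overlap and the chromosome was chosen by this share, so a high rank was partly built in. The share was 69.1% with an FDR under 0.001, 75.8% with log2 changes of at least 1, 69.9% inside genes, 47.3% outside genes and 55.2% at mean log2 levels of at least 7, and 60.0 to 65.9% in the other 7. The difference was 15.9 points with an FDR under 0.001, 14.4 inside genes and 1.26 outside genes, and 7.52 to 10.4 in the other 14, reweighting included. The level, the 2 position choices, the first 10 Mb left out, the joining within 100 kb and the reweighting by gene position were chosen after the data were seen. With an FDR under 0.001 the median changes were 1.6 and -1.01, as small changes pass less often. Above the other autosomes were 22 of 30 stretches of 2 Mb and 7 of 7 of 10 Mb. Neighbours had the same direction in 75.7% of pairs up to 5 kb apart and in 60.6% of all. Sites near a gene end were 4.94% within 500 bp and 16.9% within 2 kb. By construction a narrower window holds fewer. Other causes were not tested. No paired analysis was possible because the table holds no values per library, and leaving out a replicate was not possible for the same reason.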
